A study of Mus musculus with 24 samples.

Results

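The 33 genes described here carry glucose into the cell, break it down to pyruvate, and send that pyruvate either out as lactate or into mitochondria as acetyl-CoA. They were taken by gene symbol and not by a cut on measured values, but they were chosen with earlier results of these data known. Of the 56941 gene lines of the deposited table, 34 carry an identifier of one of these symbols. For Aldoa, which has a pair of identifiers, the one with more reads was used. All 33 genes had enough labelled RNA to be tested, as did 22448 of the 56941 lines. The cells were E14TG2a mouse embryonic stem cells, an established line kept undifferentiated with LIF and inhibitors of MEK and GSK3. The genotypes were Alkbh5 del-cIDR, called dcIDR here, a deletion in Alkbh5 for which the study's title gives IDR as intrinsically disordered region; the knockout of Alkbh5, called KO; and WT. Dishes of each genotype were fed 1 mM 5-ethynyluridine (EU), a uridine analogue that growing transcripts take up, for 10, 20, 40 or 60 min, and the EU-carrying RNA was pulled out, mixed with labelled Drosophila RNA as a spike-in, and sequenced. There were 2 libraries for each genotype and time, 24 in all.

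Glycolysis turns glucose into pyruvate in the cytosol, and its flux is set mostly at glucose uptake, hexokinase, phosphofructokinase and pyruvate kinase. Most of its steps are served by several isozymes encoded by separate genes, so that a cell can change the make-up of a step without changing the step itself. Pluripotent stem cells are known for high glycolytic flux with much of the pyruvate leaving as lactate, and the transcription factors HIF1 and MYC are known activators of many of these genes. ALKBH5 removes the methyl group of N6-methyladenosine from RNA. EU labelling for a few minutes collects mainly RNA that was still being made, and longer labelling adds RNA that has since been spliced and exported, so the level at each time reflects synthesis and, increasingly, stability.

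Levels in the text are reads per spike-in read, brought to a common 11714 spike-in reads per library. Unless said otherwise, a value is the log2 of that level plus 1, relative to the median tested gene of the same library. A difference between genotypes averages over the 4 labelling times. It is given with its standard error from a limma fit over all 24 libraries, and a gene is called where the limma p, adjusted over all 22448 genes, was under 0.05. Libraries held 6037 to 23382 spike-in reads and 3128884 to 22162658 gene reads. The Alkbh5 gene itself kept 242 to 2269 reads in the 8 dcIDR libraries and 340 to 1989 in the 8 KO libraries, against 361 to 2669 in the 6 WT libraries whose reads could be told apart. Relative to the median gene its labelled RNA was lower by limma in both (dcIDR −0.46 ± 0.06, adjusted p = 0.000213; KO −0.60 ± 0.06, adjusted p = 1.22e-05). On the authors' spike-in scale it was at −0.29 in each and not called (limma, adjusted p = 0.345 and 0.206). The labels do not say which bases each edit removed, so these reads do not check the genotypes. All 10 stem cell markers (such as Pou5f1, Sox2 and Nanog) were detected, with a summed level of 11695 to 102741 in dcIDR, 24074 to 99703 in KO and 15894 to 97792 in WT libraries. Against WT, 1 of the 10 was called higher and 2 lower in dcIDR cells, and 1 higher and 4 lower in KO cells, the 4 being Sox2 (−0.41), Tfcp2l1 (−0.61), Klf4 (−0.39) and Utf1 (−0.48). On the spike-in scale these 4 were at −0.11, −0.30, −0.09 and −0.17 and not called by limma. Only 2 of 7 feeder fibroblast markers were abundant enough to test, with a summed level of at most 81.5 in any library. The 4 neural markers summed to 423 to 3025 in dcIDR, 1932 to 8235 in KO and 723 to 4214 in WT libraries over all labelling times. In dcIDR cells Nes (−0.41) and Tubb3 (−0.88) were lower than in WT, and in KO cells Pax6 (1.57), Nes (0.86) and Tubb3 (0.84) were higher by limma, while Sox1 was called in neither. The KO calls and that of Tubb3 in dcIDR cells also held on the spike-in scale. With each library centred on the median gene of the same chromosome, 3 of the 4 neural markers were called higher and 1 lower in KO cells. Of 5 tested endoderm and mesoderm markers, 0 were called against WT by limma, but 2 were higher in KO cells on the spike-in scale. Of 2 tested trophoblast markers, 1 was called higher in dcIDR and 0 in KO cells by limma. The part of these markers in the results below was not tested. The labels do not say how many clones stand behind each genotype, and p-values here measure the spread between dishes of one genotype.

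Set against WT cells, limma called 8 of the 33 genes higher and 3 lower in KO cells. That is 33.3% of them, where 30.1% of all tested genes were called. By direction, 14.6% of all tested genes were called higher and 15.5% lower, and the median difference was −0.04 over the 33 genes and −0.01 over all tested genes. The 8 higher genes were Hk2, Gpi1, Pfkp, Tpi1, Gapdh, Bpgm, Eno2 and Pdk1, and the 3 lower genes were Pfkm, Pfkfb3 and Pdha1. In dcIDR cells 10 genes were called higher and 1 lower against WT, again 33.3%, beside 25.1% of all tested genes. By direction these were 10.4% higher and 14.7% lower. The median difference was 0.07 over the 33 genes and −0.02 over all. The 10 higher genes were Slc2a1, Slc2a3, Gpi1, Pfkm, Pfkfb3, Aldoc, Pgk1, Pdha1, Pdk1 and Pdk3, and Bpgm was lower. Set directly against each other, 12 genes were higher and 6 lower in dcIDR than in KO cells, 54.5% beside 43.4% of all tested genes. By direction 21% of all tested genes were higher and 22.4% lower. The comparisons of dcIDR and of KO cells with WT share the same WT libraries. In bulk cultures a smaller number of expressing cells and less RNA per cell cannot be told apart.

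The choice of scale matters for directions. On the authors' spike-in scale, with no centring on the median gene, the median gene was itself higher than in WT by 0.15 in dcIDR and by 0.30 in KO cells, and it stood at −0.13 in dcIDR against KO cells. On that scale KO cells had 8 of the 33 genes called higher and 0 called lower against WT by limma, where 21.9% and 2.63% of all tested genes were. The 8 were Hk2, Gpi1, Tpi1, Gapdh, Bpgm, Eno2, Ldhb and Pdk1, of which Ldhb was not called relative to the median gene. At an unadjusted p under 0.05, 0 were lower in KO and 0 in dcIDR cells on this scale too, and no other tool was run; in KO cells Pfkm, Pfkfb3 and Pdha1 had differences of −0.30, −0.09 and −0.20. In dcIDR cells Pfkm, Pfkfb3, Pgk1 and Pdk3 were called higher than in WT on that scale and 0 genes lower by limma, where 5.69% and 2.23% of all tested genes were. Between the mutants, Pfkm, Pfkfb3, Pgk1 and Pdha1 were called higher and Hk2, Tpi1, Gapdh, Bpgm and Eno2 lower in dcIDR cells, where 6.57% and 17% of all tested genes were. Statements on single genes below are therefore relative to the median gene, and the calls on the spike-in scale are the ones listed here.

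**Figure D1:**
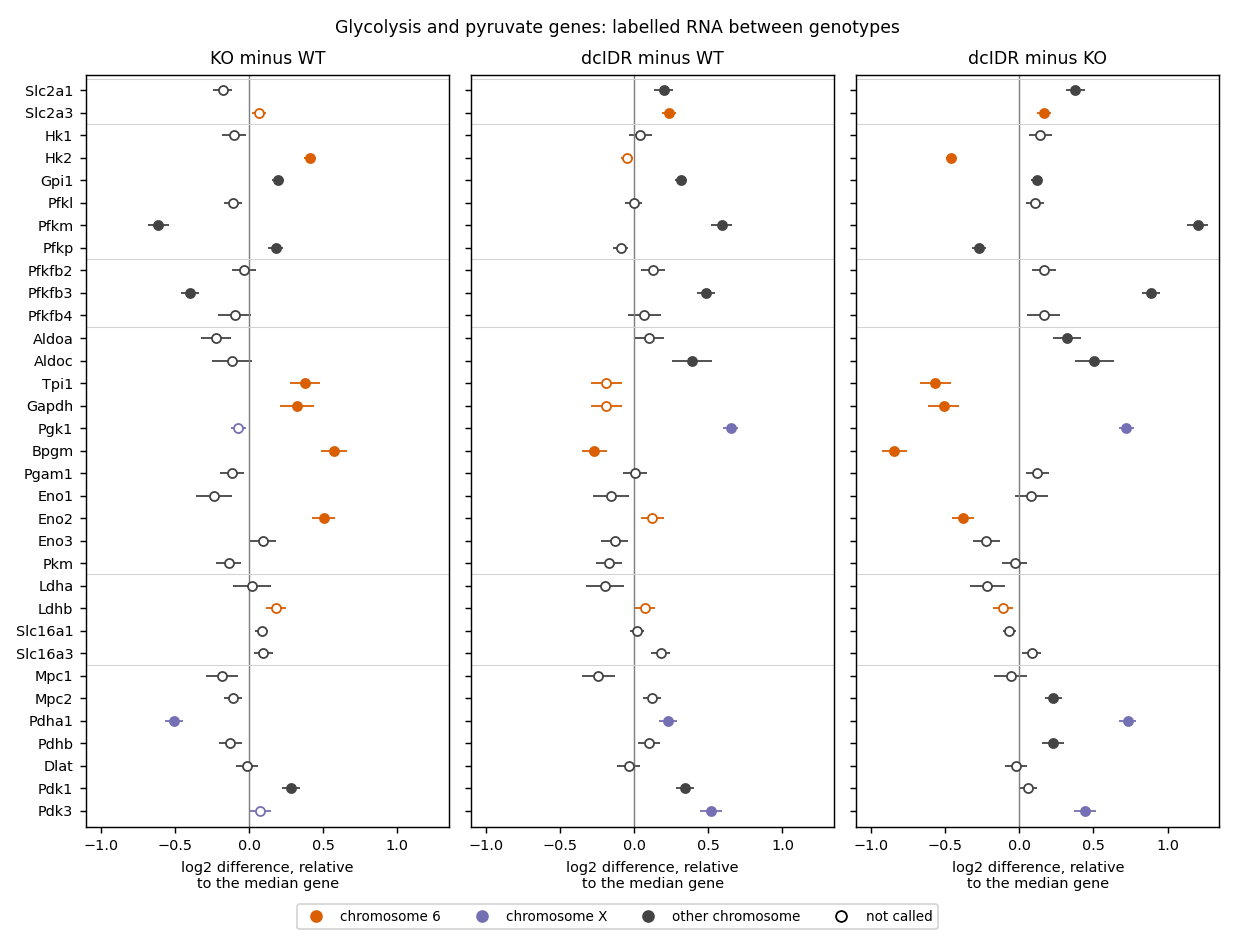
Mean log2 differences of the 33 genes (rows, from glucose uptake to pyruvate oxidation) over the 4 labelling times, relative to the median gene. Points are limma estimates, bars are standard errors, open points were not called, and colours mark chromosomes 6 and X. Pfkm, Pfkfb3 and Pdha1 lie left of 0 in KO minus WT and right of 0 in dcIDR minus WT, and on the spike-in scale their KO differences were not called. Most chromosome 6 genes lie right of 0 in KO minus WT and left of 0 in dcIDR minus KO.

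A share of these differences was common to whole chromosomes. Hk2, Tpi1, Gapdh, Bpgm, Eno2, Ldhb and Slc2a3 lie on chromosome 6, and 5 of these 7 were higher in KO than in WT cells. The median of all 1120 tested chromosome 6 genes was higher by 0.40 in KO cells, and 58.6% of them were called higher by limma. When each library was centred on the median gene of the same chromosome, 0 of the 7 were called higher by limma (1 at an unadjusted p under 0.05) and 1, Slc2a3, was lower (−0.29, adjusted p = 0.0018). Pgk1, Pdha1 and Pdk3 lie on the X chromosome, where the median of 675 genes was higher by 0.26 in dcIDR than in WT cells and 42.4% were called higher. All 3 were higher in dcIDR cells, and after centring within the chromosome Pgk1 (0.36, adjusted p = 0.00014) and Pdk3 (0.23, adjusted p = 0.023) still were, while Pdha1 was not (−0.06). Against WT, the 23 genes on other chromosomes had 6 higher in dcIDR cells, and 3 higher with 2 lower in KO cells. Within chromosomes the counts were the same, with Slc16a3 called in place of Slc2a1 in dcIDR cells. In dcIDR against KO cells, 5 of the 7 chromosome 6 genes were lower, where 65% of all tested chromosome 6 genes were, and the 3 X-linked genes were higher, where 45.9% were. Over all 33 genes, centring within chromosomes gave 3 higher and 4 lower in KO against WT by limma, beside 12.5% and 13.6% of all genes so tested. It gave 9 higher and 0 lower in dcIDR against WT by limma (2 lower at an unadjusted p under 0.05), beside 10.3% and 13.9%. In dcIDR against KO cells it gave 11 higher and 2 lower, beside 18.8% and 21.3%. Calls made only within chromosomes were those of Slc2a3 in KO against WT, Slc16a3 in dcIDR against WT and Ldhb in dcIDR against KO cells (0.33, limma, adjusted p = 0.00165). What moves the genes of a whole chromosome together was not tested.

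**Figure D2:**
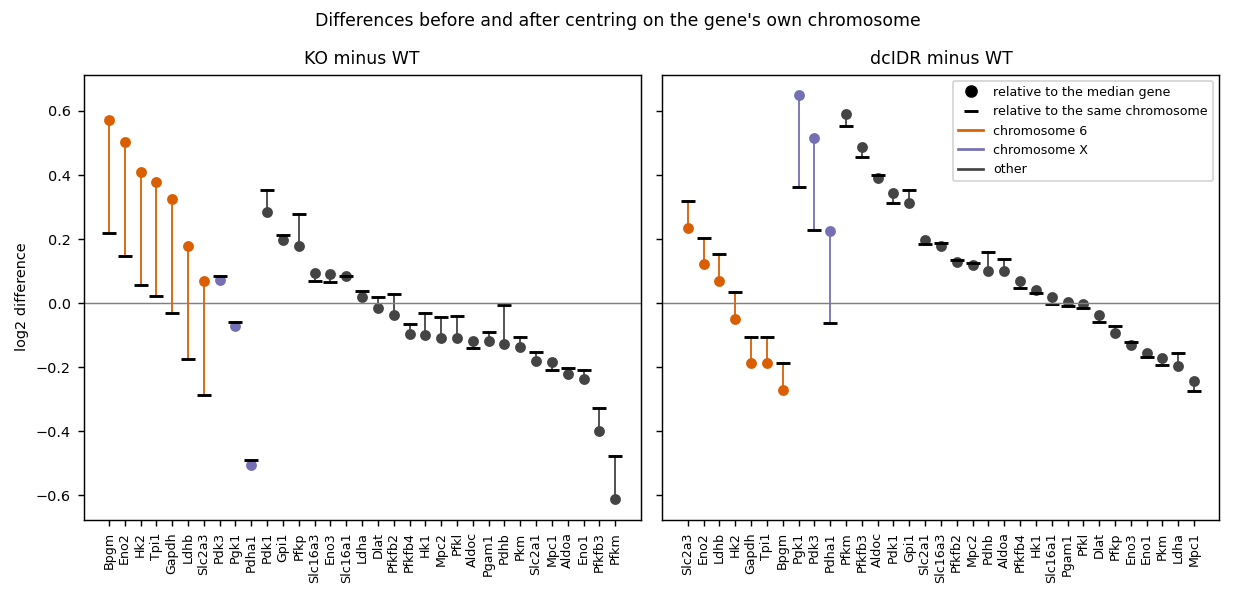
Log2 difference of each of the 33 genes for KO minus WT and dcIDR minus WT. Points are relative to the median gene of all chromosomes and dashes to that of the same chromosome. Chromosome 6 genes drop towards or below 0 in the KO panel when set against their own chromosome, with Gapdh, Ldhb and Slc2a3 crossing it. Pdha1 crosses 0 in the dcIDR panel, while Pfkm, Pfkfb3, Pdk1 and Gpi1 keep their sides.

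Pfkm, Pfkfb3 and Pdha1 were the genes with lower labelled RNA in KO and higher labelled RNA in dcIDR cells, relative to the median gene, and their promoters are shown for that reason. Each window holds 250 bases before and 50 bases after a transcription start listed by RefSeq on GRCm38.p6, an older build than that of the reads, and is given 5′ to 3′ on the gene's strand. Pfkm has 4 listed starts, Pfkfb3 has 2 and Pdha1 has 1, and the most upstream is printed. Capitals mark matches on either strand to ACGTG or GCGTG, the core bound by HIF1. ACGTG also lies inside the E-box CACGTG bound by MYC. The Pfkm window is chr15:98092339-98092638 on the plus strand, the Pfkfb3 window chr2:11553880-11554179 on the minus strand and the Pdha1 window chrX:160138381-160138680 on the minus strand.
Pfkm: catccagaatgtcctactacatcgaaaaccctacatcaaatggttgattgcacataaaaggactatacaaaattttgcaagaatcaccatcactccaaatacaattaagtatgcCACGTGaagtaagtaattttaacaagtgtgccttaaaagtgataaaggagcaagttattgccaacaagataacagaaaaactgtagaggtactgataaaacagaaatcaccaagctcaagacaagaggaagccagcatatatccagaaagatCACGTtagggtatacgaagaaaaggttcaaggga
Pfkfb3: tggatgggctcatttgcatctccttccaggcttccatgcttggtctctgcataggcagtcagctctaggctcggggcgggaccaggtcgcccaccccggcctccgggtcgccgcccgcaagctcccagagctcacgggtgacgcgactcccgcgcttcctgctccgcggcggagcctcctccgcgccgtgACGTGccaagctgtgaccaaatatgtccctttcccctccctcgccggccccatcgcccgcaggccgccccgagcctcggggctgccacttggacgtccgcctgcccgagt
Pdha1: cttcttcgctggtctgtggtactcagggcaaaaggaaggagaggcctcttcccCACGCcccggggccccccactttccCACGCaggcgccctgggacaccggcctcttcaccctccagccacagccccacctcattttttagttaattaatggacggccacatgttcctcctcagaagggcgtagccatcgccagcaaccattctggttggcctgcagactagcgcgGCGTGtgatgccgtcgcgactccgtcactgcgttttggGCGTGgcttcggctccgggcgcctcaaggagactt
The Pfkm window had 3 matches to ACGTG, counting the palindromic CACGTG on both strands, the Pfkfb3 window had 1, and the Pdha1 window had 4 matches to GCGTG. Windows of the starts not printed differed from these. For Pfkm they had 1, 0 and 0 matches to ACGTG and 0 to CACGTG. The second Pfkfb3 window had 2 matches to ACGTG, 2 to GCGTG and 1 to CACGTG. Across the whole group, 32 of the 33 genes matched RefSeq promoters, with 48 windows in all, and Slc2a3 had none. ACGTG was found in 43.8% of these 48 windows and in 19.6% of all 32851 mouse windows of the same length, GCGTG in 58.3% and 32.4%, and CACGTG in 10.4% and 7.15%. These matches describe the letters in the windows only.

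Glucose enters through the facilitative transporters GLUT1 (Slc2a1) and GLUT3 (Slc2a3) and is trapped by hexokinase, of which Hk1 encodes the widely expressed form and Hk2 a further form. Hk2 was higher in KO cells and did not differ detectably between dcIDR and WT cells. Its relative level had a median of 5.49 (5.42 to 5.62) over 8 dcIDR libraries, 5.94 (5.83 to 6.14) over 8 KO libraries and 5.54 (5.49 to 5.65) over 7 WT values, the reads of WT at 60 min being known only as a mean. Every KO value was above every WT and every dcIDR value. The difference was 0.41 ± 0.04 in KO against WT (limma, adjusted p = 6.48e-06), and by time it was 0.34, 0.47, 0.36 and 0.47 at 10, 20, 40 and 60 min. In dcIDR against KO it was −0.46 ± 0.04 (limma, adjusted p = 5.83e-07). Both also held on the spike-in scale. The chromosome 6 medians were 0.40 and −0.49 in these comparisons, and within the chromosome the differences of Hk2 were 0.06 and −0.02, neither called by limma.

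Slc2a3 was higher in dcIDR than in WT cells by 0.23 ± 0.05 (limma, adjusted p = 0.00446). Its median was 6.60 (6.53 to 7.07) in dcIDR, 6.56 (6.36 to 6.79) in KO and 6.45 (6.32 to 6.66) in WT cells, over 7 values each. The dcIDR and WT ranges overlapped, although at each of the 4 times the dcIDR values lay above the WT values. Slc2a1 differed by 0.20 ± 0.07 in the same comparison (limma, adjusted p = 0.0455), with medians of 3.55 (3.43 to 3.96) in dcIDR, 3.18 (3.06 to 3.41) in KO and 3.36 (3.25 to 3.65) in WT cells. This call for Slc2a1 was lost when any of 18 of the 24 libraries was left out, with differences of 0.16 to 0.24. Against KO cells, Slc2a1 was higher in dcIDR cells by 0.38 ± 0.06 on average (limma, adjusted p = 0.000293), with the dcIDR libraries above the KO libraries at each of the 4 times. By time the Slc2a1 difference was 0.74, 0.25, 0.31 and 0.21 at 10, 20, 40 and 60 min, and on the spike-in scale it was 0.24, not called. Slc2a3 was higher in dcIDR than in KO cells by 0.17 ± 0.05 (limma, adjusted p = 0.0156). For Slc2a3 that difference was 0.60 within chromosome 6 (limma, adjusted p = 4.01e-06) and 0.03, not called, on the spike-in scale. Hk1 was not called between genotypes, with differences of 0.04 in dcIDR and −0.10 in KO against WT.

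In the hexose phase, glucose-6-phosphate isomerase (Gpi1) feeds phosphofructokinase, the committed step, whose subunits are encoded by Pfkl (liver type), Pfkm (muscle type) and Pfkp (platelet type). Pfkm had the largest difference between the mutants of all 33 genes, and relative to the median gene it lay above WT in dcIDR and below WT in KO cells. Its relative level had a median of 1.54 (1.36 to 2.01) in dcIDR, 0.35 (0.05 to 0.70) in KO and 1.07 (0.53 to 1.23) in WT cells, over 8 libraries each. All 8 dcIDR libraries lay above all WT libraries. The KO and WT ranges overlapped, but at each labelling time both KO libraries lay below both WT libraries. In spike-in-scaled reads, Pfkm averaged 114 ± 21.03 in dcIDR, 109 ± 30.5 in KO and 102 ± 14.9 in WT cells at 10 min (SD, n = 2 each). At 60 min it averaged 480 ± 103 in dcIDR, 250.1 ± 21.1 in KO and 273 ± 23.7 in WT cells. There the dcIDR libraries stood apart on this scale, and the KO and WT libraries overlapped. In the same order, the means were 390 ± 144, 127 ± 4.79 and 183 ± 5.89 at 20 min. At 40 min they were 651 ± 124, 199 ± 34.6 and 312 ± 58.3. At 20 and 40 min no genotypes overlapped and KO cells were lowest, whereas at 10 min all genotypes overlapped. The difference from WT was 0.59 ± 0.07 in dcIDR (limma, adjusted p = 4.31e-05) and −0.61 ± 0.07 in KO cells (limma, adjusted p = 1.52e-05). The excess of dcIDR over KO cells was 1.20 ± 0.07 (limma, adjusted p = 1.20e-08). Within chromosome 15 these were 0.55, −0.48 and 1.03, all called. On the spike-in scale the dcIDR differences were called (0.76 against WT, 1.07 against KO) and that of KO against WT was not (−0.30, adjusted p = 0.15).

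The other subunits behaved otherwise. Pfkp was higher in KO than in WT cells by 0.18 ± 0.05 (limma, adjusted p = 0.0165), with medians of 5.52 (5.39 to 5.71) in KO and 5.39 (5.26 to 5.46) in WT cells. It was lower in dcIDR than in KO cells (−0.27 ± 0.05, limma, adjusted p = 0.000448), with a dcIDR median of 5.28 (5.06 to 5.45). Another gene holds a near-identical stretch of the Pfkp transcript and has 24.9% as many reads, so the Pfkp counts are uncertain. Pfkl was not called in any comparison (0.00 in dcIDR and −0.11 in KO against WT). Gpi1 was higher than in WT in dcIDR (0.31 ± 0.04, limma, adjusted p = 0.000142) and in KO cells (0.20 ± 0.04, limma, adjusted p = 0.00256). Its medians were 4.75 (4.49 to 4.97) in dcIDR, 4.62 (4.39 to 4.88) in KO and 4.37 (4.27 to 4.69) in WT cells. The 3 ranges overlapped, but both dcIDR libraries exceeded the WT values at each of the 4 times and both KO libraries at 3. The difference of 0.12 ± 0.04 between dcIDR and KO cells (limma, adjusted p = 0.0267) rested on 10 min, when it was 0.51. It was −0.0136 without those libraries and −0.0215 on the spike-in scale, and its call was lost when any of 7 of the 24 libraries was left out (0.10 to 0.13).

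Fructose-2,6-bisphosphate, the strongest activator of phosphofructokinase, is made and removed by bifunctional enzymes encoded by Pfkfb2, Pfkfb3 and Pfkfb4, of which PFKFB3 has the highest kinase activity relative to its phosphatase activity. Pfkfb3 had the same pattern as Pfkm. Its median was 2.02 (1.53 to 2.47) in dcIDR, 1.19 (0.43 to 1.63) in KO and 1.54 (1.13 to 1.93) in WT cells, over 8 libraries each. Pfkfb3 climbed with labelling time and the genotype ranges overlapped, but at each time both dcIDR libraries lay above both WT libraries and both KO libraries below them. The differences from WT at 10, 20, 40 and 60 min were 0.45, 0.52, 0.44 and 0.55 in dcIDR and −0.56, −0.31, −0.48 and −0.26 in KO cells. Their means were 0.49 ± 0.06 (limma, adjusted p = 7.14e-05) and −0.40 ± 0.06 (limma, adjusted p = 0.000188), and dcIDR exceeded KO cells by 0.89 ± 0.06 (limma, adjusted p = 5.62e-08). On the spike-in scale the first and the last held (0.66 and 0.75), and the difference of KO cells from WT was −0.09 and not called. Pfkfb2 (0.13 in dcIDR, −0.04 in KO) and Pfkfb4 (0.07 and −0.10) were not called against WT.

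**Figure D3:**
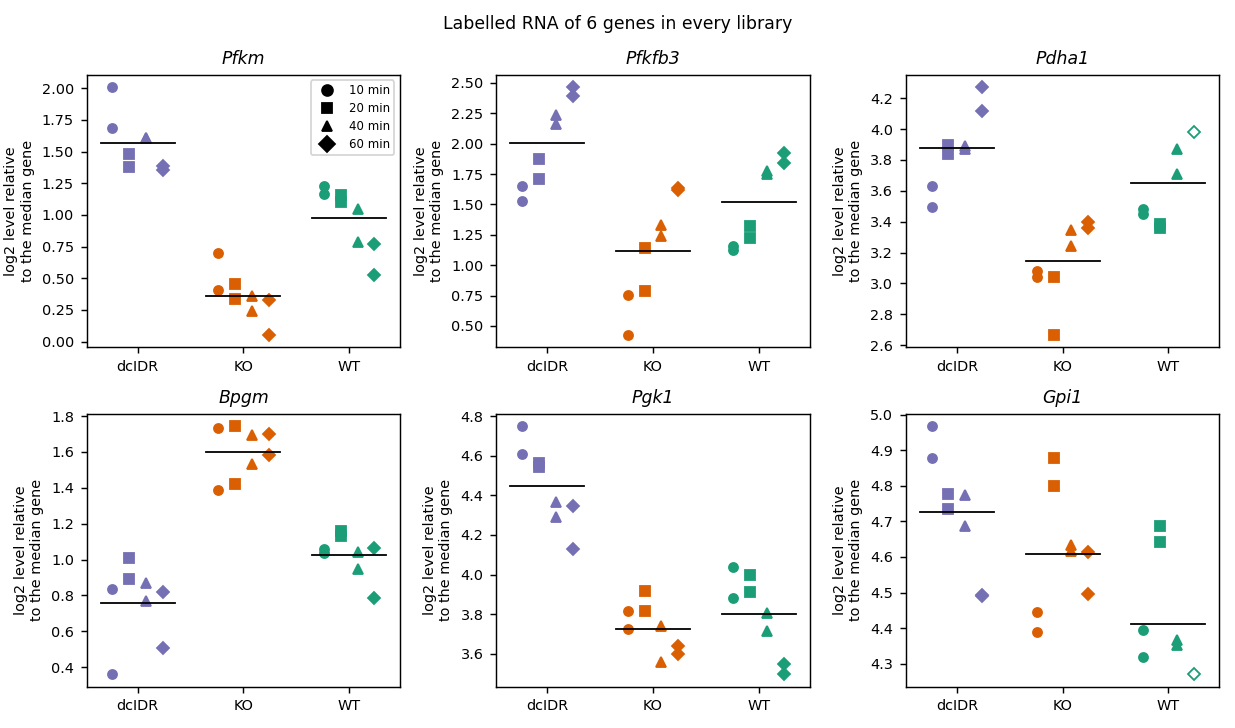
Relative log2 level of 6 genes in each library, by genotype and labelling time (symbols), with lines at the mean of the 4 times. Open symbols are means of both libraries where their reads could not be told apart. For Pfkm every dcIDR library lies above every WT library, for Bpgm every KO library lies above the WT and dcIDR libraries, and for Pgk1 every dcIDR library lies above the rest.

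In the triose phase, aldolase (Aldoa, Aldoc) splits the hexose and triose phosphate isomerase (Tpi1) interconverts the products, after which Gapdh, phosphoglycerate kinase (Pgk1), phosphoglycerate mutase (Pgam1), enolase (Eno1, Eno2, Eno3) and pyruvate kinase (Pkm) lead to pyruvate. Pgk1, the first ATP-yielding step, was furthest above WT in dcIDR cells relative to the median gene, and stood after Pfkm, Pfkfb3 and Aldoc within chromosomes. Its median was 4.45 (4.13 to 4.75) in dcIDR, 3.73 (3.56 to 3.92) in KO and 3.84 (3.50 to 4.04) in WT cells, over 8 libraries each. No dcIDR library overlapped a KO or a WT library, whereas the KO and WT ranges overlapped. The difference from WT was 0.65 ± 0.05 in dcIDR cells (limma, adjusted p = 8.46e-07), and by time it was 0.72, 0.60, 0.57 and 0.72 at 10, 20, 40 and 60 min. In KO cells it was −0.07 ± 0.05, not called, and dcIDR exceeded KO cells by 0.72 ± 0.05 (limma, adjusted p = 5.45e-08). The dcIDR calls held on the spike-in scale (0.82 against WT, 0.59 against KO) and within the X chromosome (0.36 and 0.42).

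Bpgm encodes bisphosphoglycerate mutase, which diverts an intermediate of this phase to 2,3-bisphosphoglycerate and is best known from red cells. Relative to the median gene of all chromosomes it was furthest above WT in KO cells, but within chromosomes Pdk1 (0.35) and Pfkp (0.28) were called and Bpgm was not. Its median was 0.83 (0.36 to 1.01) in dcIDR, 1.64 (1.39 to 1.74) in KO and 1.05 (0.78 to 1.16) in WT cells. The 8 KO libraries lay above all other libraries, and the dcIDR and WT ranges overlapped. KO exceeded WT cells by 0.57 ± 0.09 (limma, adjusted p = 0.000159), and by time by 0.51, 0.44, 0.62 and 0.72 at 10, 20, 40 and 60 min. In dcIDR against KO cells the difference was −0.84 ± 0.09 (limma, adjusted p = 2.33e-06). Within chromosome 6 these were 0.22, not called, and −0.40, called. Against WT, dcIDR cells were at −0.27 ± 0.09 (limma, adjusted p = 0.0329), a call that was lost when any of 10 of the 24 libraries was left out, with differences of −0.33 to −0.21. It was also lost within chromosome 6 (−0.19, limma, adjusted p = 0.136) and on the spike-in scale (−0.10, limma, adjusted p = 0.728).

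Eno2, the enolase named for its abundance in neurons, and Tpi1 and Gapdh were also higher in KO than in WT cells. Eno2 had a median of −0.38 (−1.11 to 0.57) in dcIDR, 0.02 (−0.47 to 0.51) in KO and −0.43 (−1.03 to 0.04) in WT cells, with overlapping ranges but with both KO libraries above both WT libraries at each time. The KO difference was 0.50 ± 0.08 (limma, adjusted p = 0.000177), and it was 0.11, 0.48, 0.66 and 0.76 at 10, 20, 40 and 60 min. Within chromosome 6 it was 0.15 and not called. Tpi1 differed by 0.38 ± 0.10 (limma, adjusted p = 0.0127), with medians of 2.58 (2.27 to 3.03) in KO and 2.20 (1.54 to 2.67) in WT cells, and within the chromosome by 0.02. Gapdh had medians of 6.24 (5.73 to 6.53) in KO and 5.87 (5.57 to 6.22) in WT cells. It differed by 0.32 ± 0.11 (limma, adjusted p = 0.0487), but within the chromosome it was at −0.0305 ± 0.11 and not called. Leaving out any of 16 of the 24 libraries ended the call, with differences of 0.28 to 0.37. Gapdh shares near-identical stretches with 78 other gene lines, which together had 18.7% as many reads, so its counts are uncertain too. All 3 were lower in dcIDR than in KO cells relative to the median gene and on the spike-in scale (limma; Tpi1 −0.57, Gapdh −0.51 and Eno2 −0.38), but not within chromosome 6, where they were −0.13, −0.07 and 0.0567.

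Aldoc, an aldolase gene best known from brain, with low counts here (14 to 142 reads per library), was higher in dcIDR than in WT cells by 0.39 ± 0.13 (limma, adjusted p = 0.0453). Its medians were −0.84 (−1.13 to −0.20) in dcIDR, −1.21 (−1.76 to −0.93) in KO and −1.01 (−1.82 to −0.93) in WT cells, with overlapping ranges. The call was lost when any of 15 of the 24 libraries was left out (0.29 to 0.48). By time, Aldoc in dcIDR cells differed from WT by 0.45, 0.57, −0.07 and 0.60 at 10, 20, 40 and 60 min, and it exceeded KO cells by 0.51 ± 0.13 (limma, adjusted p = 0.0067). Aldoa, the main aldolase gene, was not called against WT (0.10 in dcIDR, −0.22 in KO) and was higher in dcIDR than in KO cells by 0.32 ± 0.10 (limma, adjusted p = 0.0153). By time that Aldoa difference was 0.74, 0.08, 0.15 and 0.32 at 10, 20, 40 and 60 min, and on the spike-in scale it was 0.18, not called. None of Pgam1 (0.00 in dcIDR, −0.12 in KO against WT), Eno1 (−0.16 and −0.24), Eno3 (−0.13 and 0.09) and Pkm (−0.17 and −0.14) was called in any of the 3 comparisons by limma. Near-identical stretches in other genes also bear on Eno1, Pgam1 and Pkm, where those genes had 20.3%, 10.98% and 9.05% as many reads.

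Lactate dehydrogenase (Ldha, Ldhb) reduces pyruvate, and the monocarboxylate transporters MCT1 (Slc16a1) and MCT4 (Slc16a3) carry lactate across the membrane. Relative to the median gene none of these 4 was called in any comparison between genotypes by limma. Ldha differed from WT by −0.20 in dcIDR and 0.02 in KO cells, Ldhb by 0.07 and 0.18, Slc16a1 by 0.02 and 0.08, and Slc16a3 by 0.18 and 0.09. The lowest adjusted p among them was 0.0545, for Slc16a3 in dcIDR against WT, and within chromosomes that difference was called (0.19, limma, adjusted p = 0.0312). Ldhb was at −0.11 in dcIDR against KO cells, where within chromosome 6 it was called higher (0.33, limma, adjusted p = 0.00165). In KO against WT cells Ldhb was called higher on the spike-in scale (0.49, limma, adjusted p = 0.0211).

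Pyruvate enters mitochondria through the carrier encoded by Mpc1 and Mpc2 and is oxidised by pyruvate dehydrogenase, with the E1 subunits encoded by Pdha1 and Pdhb and the E2 subunit by Dlat. Kinases encoded by Pdk1 and Pdk3 switch the complex off by phosphorylating E1 alpha. Pdha1 was lower in KO cells and higher in dcIDR cells than in WT. Its median was 3.88 (3.50 to 4.27) over 8 dcIDR libraries, 3.16 (2.67 to 3.40) over 8 KO libraries and 3.48 (3.36 to 3.98) over 7 WT values. No KO library reached a dcIDR library, while the WT range overlapped both, and at each labelling time the WT values lay between the others. The difference from WT was 0.23 ± 0.06 in dcIDR cells (limma, adjusted p = 0.0148), and by time it was 0.10, 0.50, 0.10 and 0.21 at 10, 20, 40 and 60 min. In KO cells it was −0.50 ± 0.06 (limma, adjusted p = 3.46e-05), and by time −0.40, −0.52, −0.49 and −0.60. The dcIDR call was lost, and turned to −0.0624, within the X chromosome, where KO cells stayed at −0.49. The excess of dcIDR over KO cells was 0.73 ± 0.06 (limma, adjusted p = 3.62e-07). It was also called within the chromosome (0.43) and on the spike-in scale (0.59). A near-identical copy had 13.1% as many reads as Pdha1.

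The kinase gene Pdk1 was higher than in WT in both mutants, by 0.34 ± 0.06 in dcIDR (limma, adjusted p = 0.00119) and 0.28 ± 0.06 in KO cells (limma, adjusted p = 0.00314). Its medians were 1.66 (1.48 to 1.86) in dcIDR, 1.61 (1.32 to 1.98) in KO and 1.34 (1.16 to 1.52) in WT cells, with overlapping ranges. In KO cells the difference was 0.03, 0.25, 0.28 and 0.57 at 10, 20, 40 and 60 min. Pdk3 was higher in dcIDR cells than in the others. Its median was 1.74 (1.55 to 2.08) in dcIDR, 1.37 (1.02 to 1.61) in KO and 1.24 (0.91 to 1.61) in WT cells. It exceeded WT by 0.52 ± 0.08 (limma, adjusted p = 0.000249), and by time by 0.57, 0.77, 0.37 and 0.36 at 10, 20, 40 and 60 min. It exceeded KO cells by 0.44 ± 0.08 (limma, adjusted p = 0.000276), and KO cells differed from WT by 0.07, not called. The excess over WT held on the spike-in scale (0.69), and that over KO cells did not (0.31), nor did it within the X chromosome (0.14). Mpc1 (−0.24 in dcIDR, −0.18 in KO), Mpc2 (0.12 and −0.11), Pdhb (0.10 and −0.13) and Dlat (−0.04 and −0.01) were not called against WT. Between the mutants, Mpc2 (0.23 ± 0.06, limma, adjusted p = 0.0056) and Pdhb (0.23 ± 0.07, limma, adjusted p = 0.0243) were higher in dcIDR than in KO cells, and the call for Pdhb was lost when any of 7 of the 24 libraries was left out (0.17 to 0.28) and within its chromosome (0.17). On the spike-in scale Mpc2 and Pdhb were each at 0.09 and not called.

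The labelling times allow the gain of labelled RNA to be followed within each genotype. In the authors' deposited table each value is the log2 ratio of a genotype's level at 20, 40 or 60 min to its level at 10 min, with both libraries pooled. There the 33 genes gained 1.18 to 3.58 by 60 min in dcIDR, 1.05 to 2.63 in KO and 1.00 to 2.71 in WT cells, with medians of 2.39, 1.67 and 1.84. In the same order of genotypes, 24, 18 and 23 of the 33 lay below the median tested gene of the authors' deposited table (2.72, 1.67 and 2.09). In the authors' deposited table Eno2 had the smallest gain in dcIDR and in WT cells and Ldha in KO cells, while Slc16a1 in dcIDR and Pfkfb3 in KO and WT cells had the largest.

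**Figure D4:**
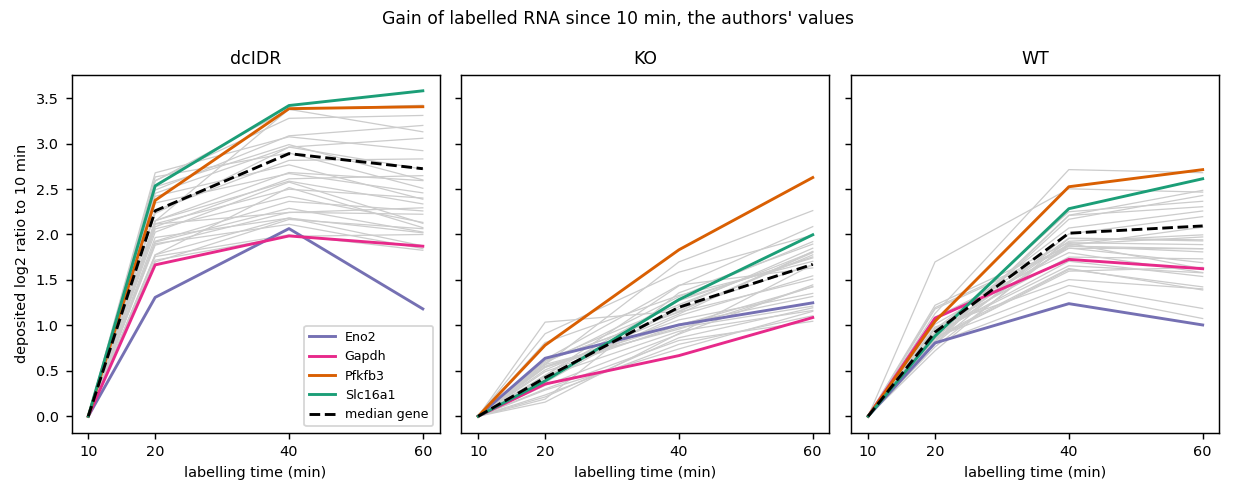
The authors' deposited log2 ratios to 10 min for the 33 genes (grey lines, 4 of them coloured) and for the median tested gene (dashed), by genotype, against labelling time in minutes. The value at 10 min is 0 by construction, and both libraries are pooled, so there are no error bars. Pfkfb3 and Slc16a1 end above the median gene and Gapdh and Eno2 below it in all 3 genotypes.

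Relative to the median gene, the change per doubling of the labelling time was called in 20 of the 33 genes in dcIDR, 7 in KO and 13 in WT cells by limma. In dcIDR cells 7 rose and 13 fell, beside 29.1% and 13.8% of all tested genes. In KO cells 6 rose and 1 fell, beside 17.8% and 6.66%. In WT cells 6 rose and 7 fell, beside 24.2% and 9.41%. The median slope of the 33 genes was −0.10 in dcIDR, 0.02 in KO and −0.06 in WT cells, against 0.05, 0.03 and 0.04 over all tested genes. A fall here is relative, since the median gene itself gained 1.03 in dcIDR, 0.65 in KO and 0.84 in WT cells per doubling on the spike-in scale, and each of the 33 genes gained on that scale.

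Pfkfb3 rose relative to the median gene in every genotype, by 0.33 ± 0.04 in dcIDR, 0.39 ± 0.04 in KO and 0.31 ± 0.04 in WT cells per doubling (limma, adjusted p = 4.04e-05, 4.91e-05 and 0.000134). Its spike-in-scaled level averaged 94.5 ± 8.30 at 10 min and 1003 ± 236 at 60 min in dcIDR, 110 ± 2.64 and 679 ± 37.5 in KO, and 98.6 ± 19.3 and 647 ± 107 in WT cells (SD, n = 2 each). Slc16a1 rose likewise, by 0.38 ± 0.03 in dcIDR, 0.15 ± 0.03 in KO and 0.26 ± 0.03 in WT cells (limma, adjusted p = 1.42e-06, 0.00409 and 5.54e-05), and Pfkfb2 by 0.27 ± 0.06, 0.28 ± 0.06 and 0.32 ± 0.06 (limma, adjusted p = 0.00208, 0.00347 and 0.000849). Pdha1 also rose in all 3 genotypes, by 0.21, 0.15 and 0.22. Dlat rose in dcIDR (0.31 ± 0.06) and WT cells (0.17 ± 0.06) and was at 0.07 ± 0.06, not called, in KO cells. Pdk1 rose in KO cells (0.20 ± 0.04, limma, adjusted p = 0.00545) and was at −0.07 in dcIDR and 0.02 in WT cells, not called. The other called rises were those of Slc2a3 in dcIDR and KO, Pdhb in dcIDR, and Pdk3 in WT cells.

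The falls were led by Eno2, with −0.45 ± 0.05 in dcIDR and −0.40 ± 0.05 in WT cells (limma, adjusted p = 2.01e-05 and 0.000111), and −0.15 ± 0.05, not called, in KO cells. At 10, 20, 40 and 60 min its spike-in-scaled level averaged 41.3 ± 7.69, 102.5 ± 31.3, 173 ± 29.9 and 93.9 ± 29.9 in dcIDR cells. It averaged 78.5 ± 13.9, 122 ± 8.20, 158 ± 18.2 and 187 ± 32.6 in KO cells and 43.5 ± 5.82, 76.2 ± 10.7, 103 ± 28.3 and 87.4 ± 20.6 in WT cells (SD, n = 2 each). The mean at 60 min was below that at 40 min in dcIDR and WT cells and above it in KO cells. Hk1 fell in all 3 genotypes, with −0.30 ± 0.06 in dcIDR, −0.17 ± 0.06 in KO and −0.24 ± 0.06 in WT cells (limma, adjusted p = 0.000806, 0.0405 and 0.00507). The KO call was lost when any of 11 of the 24 libraries was left out. Tpi1 fell in dcIDR and WT cells, with −0.30 ± 0.07 in each (limma, adjusted p = 0.00442 and 0.00598), and so did Slc16a3, with −0.25 ± 0.05 and −0.35 ± 0.05 (limma, adjusted p = 0.000551 and 7.15e-05). In KO cells they were at −0.15 and −0.09, not called. Gapdh and Ldha fell in dcIDR cells (−0.28 ± 0.07 and −0.23 ± 0.09) and were at −0.21 and −0.19 in KO and −0.15 and −0.21 in WT cells, not called. Pfkl, Pfkm and Pgk1 fell in dcIDR and WT cells, and Gpi1, Aldoa, Eno1 and Slc2a1 in dcIDR cells. Some slopes rested on single libraries. In dcIDR cells the calls of Gapdh and Eno1 were lost without the more deeply spiked library of 10 or of 60 min, and those of Aldoa, Pfkm, Slc2a1 and Ldha when any of 5, 6, 7 and 9 libraries was left out. In KO cells those of Pdha1 and Slc2a3 were lost without any of 2 and 5 libraries, and in WT cells those of Tpi1, Pfkl, Pdk3 and Dlat without any of 1, 2, 2 and 4.

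**Figure D5:**
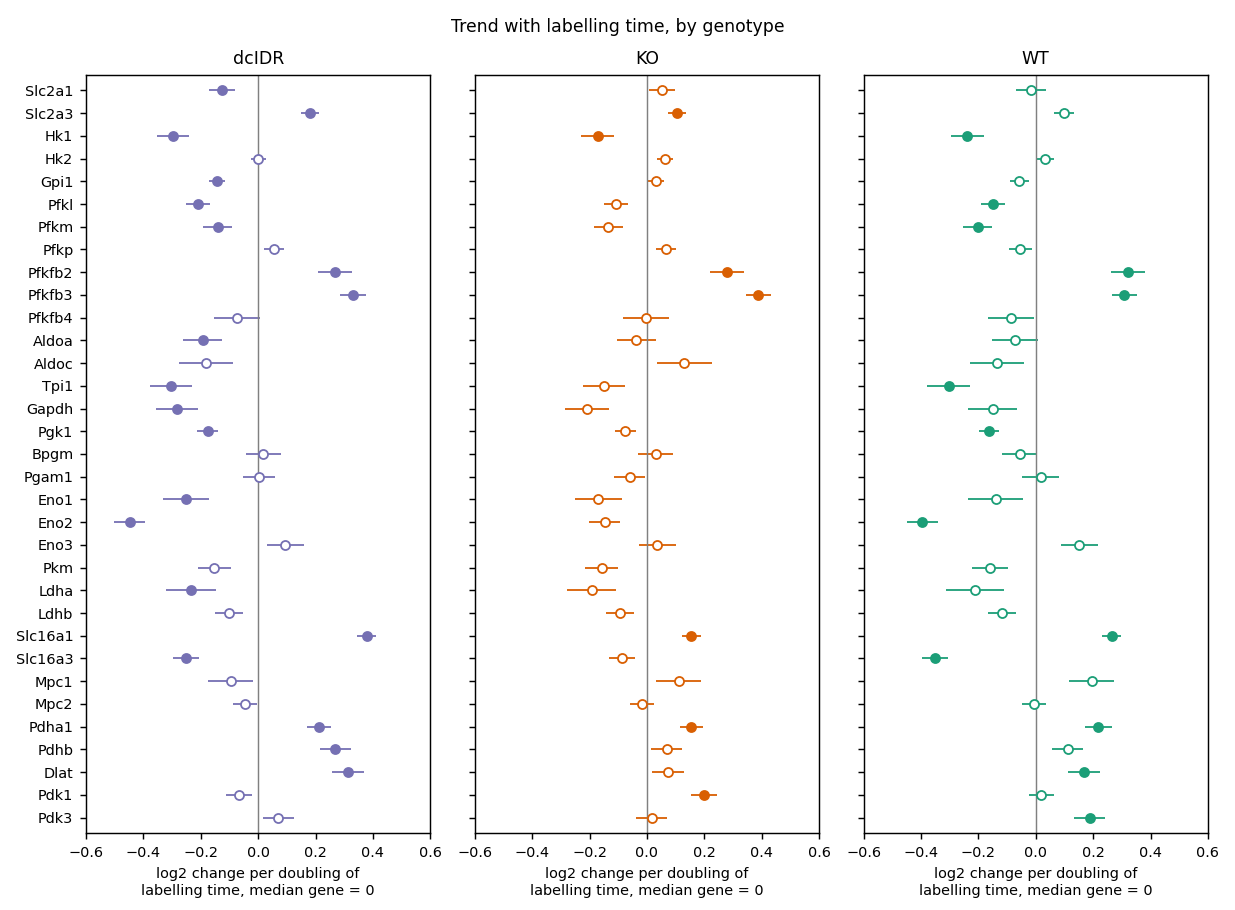
Change in labelled RNA per doubling of the labelling time, relative to the median gene (0), for each of the 33 genes in dcIDR, KO and WT cells. Points are limma estimates, bars are standard errors and filled points were called. Pfkfb2, Pfkfb3, Slc16a1 and Pdha1 lie right of 0 in every panel and Hk1 left of 0 in every panel, all called, and Eno2 lies left of 0 in every panel.

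Several genes of the triose phase that fell in dcIDR cells are short (Tpi1 spans 3711 bases, Gapdh 4753 and Eno2 9621 in GENCODE M21), and Pfkfb3, which rose, spans 82645. Other genes went the other way. Hk1, which fell, spans 111054, and Pdhb, which rose in dcIDR cells, spans 7030. Pdha1 (16205) and Slc16a1 (19795) rose in all 3 genotypes. Whether span bears on the slopes was not tested. Across the 33 genes the Spearman correlation of slope with span was 0.40 in dcIDR, 0.31 in KO and 0.29 in WT cells, and across 21523 tested genes it was 0.19, 0.24 and 0.21. Genes within a library share its depth and its spike-in reads and are not replicates.

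Relative to the median gene, slopes differed between genotypes in few of these genes. For dcIDR against KO cells 4 of the 33 genes were called by limma, beside 7.31% of all tested genes. Slc16a1 rose more in dcIDR than in KO cells (slope difference 0.22 ± 0.05, limma, adjusted p = 0.0138). Eno2 (−0.30 ± 0.08, adjusted p = 0.0333), Pdk1 (−0.27 ± 0.06, adjusted p = 0.0245) and Gpi1 (−0.18 ± 0.04, adjusted p = 0.0203) had lower slopes in dcIDR than in KO cells. For dcIDR against WT 0 of 33 were called by limma, with 2 at an unadjusted p under 0.05 and a lowest adjusted p of 0.228, beside 0.998% of all tested genes. For KO against WT 0 were called by limma as well, with 6 at an unadjusted p under 0.05 and a lowest adjusted p of 0.220, beside 0.00891%. No other tool was run on these slopes. A limma F test of whether a genotype difference depended on labelling time in any form called 2 of the 33 genes in dcIDR against KO cells, Gpi1 and Eno2, beside 4.47% of all tested genes. It called 0 in dcIDR against WT (4 at an unadjusted p under 0.05), beside 2.09%, and 0 in KO against WT (2 at an unadjusted p under 0.05), beside 0.00891%. On the spike-in scale, where the median gene gained at unlike rates in dcIDR and KO cells, the F test called most of the 33 genes between them. The count is given below, and the share of all tested genes on that scale was not counted.

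The rest of the network was read from lists of related genes, by counts called by limma against WT. Of 28 tested further glycolysis and pyruvate genes, 6 were higher and 3 lower in dcIDR and 4 higher and 5 lower in KO cells, with medians of 0.03 and 0.06. The members with the largest called differences were the insulin-responsive transporter gene Slc2a4 (0.94 ± 0.21) and the transporter gene Slc2a2 (−0.70 ± 0.24) in dcIDR cells, and the pyruvate dehydrogenase kinase gene Pdk4 (−0.89 ± 0.09) and the D-lactate dehydrogenase gene Ldhd (0.67 ± 0.12) in KO cells. Ldhd lies on chromosome 8, where the median of 1108 genes was higher by 0.33 in KO cells, and within that chromosome its difference was 0.34 (limma, adjusted p = 0.0438). Within chromosomes Emb, which encodes embigin, a partner of monocarboxylate transporters, stood highest of the called genes of this list in KO cells (0.74). Between the mutants Pdk4 was higher in dcIDR than in KO cells by 1.40 ± 0.09. Of 8 tested genes of gluconeogenesis and anaplerosis, 1 was higher and 1 lower in dcIDR and 3 were higher and 3 lower in KO cells. Here Fbp2 and Fbp1, whose products hydrolyse the bisphosphate that phosphofructokinase makes, were lower in KO than in WT cells (−1.94 ± 0.10 and −1.49 ± 0.25, limma, adjusted p = 8.16e-09 and 0.000404), also on the spike-in scale (−1.63 and −1.18). In dcIDR cells the largest difference was that of the malic enzyme gene Me3 (−2.01 ± 0.15).

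The 20 tested hypoxia response genes outside glycolysis had 7 higher and 4 lower in dcIDR and 4 higher and 3 lower in KO cells, with medians of 0.10 and −0.03. On the spike-in scale limma called 3 genes higher and 0 lower in dcIDR and 5 higher and 0 lower in KO cells. Within chromosomes the KO counts of this list were 1 higher and 4 lower by limma. Vhl and Kdm3a on chromosome 6 and Egln1 on chromosome 8, called higher at first, were at 0.03, −0.20 and −0.05 there, and Kdm3a was then called lower. The largest called differences were those of Adm (1.78 ± 0.41) in dcIDR and of P4ha2, which encodes a collagen prolyl hydroxylase subunit, in KO cells (0.73 ± 0.07). Of 8 genes for MYC and its partners, 1 was higher and 2 lower in each mutant, and Myc itself was lower than in WT in dcIDR (−0.96 ± 0.13, limma, adjusted p = 0.000148) and higher in KO cells (0.39 ± 0.13, limma, adjusted p = 0.0380), calls that held on the spike-in scale. The 8 pentose phosphate genes had 1 higher and 2 lower in dcIDR and 2 higher and 1 lower in KO cells. Of the 5 genes of the serine branch 2 were higher in dcIDR and 1 in KO cells. The 17 citric acid cycle genes had 1 higher and 2 lower in dcIDR and 4 higher and 2 lower in KO cells. On the spike-in scale limma called 4 higher and 0 lower of the further glycolysis and pyruvate genes in dcIDR cells. In KO cells it called 4 and 1 of them. In the same order, gluconeogenesis and anaplerosis had 1 and 1 in dcIDR and 3 and 2 in KO cells. MYC and its partners had 0 and 1, and 1 and 0. The pentose phosphate genes had 0 and 0, and 4 and 0. The serine branch had 1 and 0, and 3 and 0, and the citric acid cycle 0 and 0, and 4 and 0. Within chromosomes the counts in KO cells were 3 higher and 6 lower for the further glycolysis and pyruvate genes and 1 higher and 2 lower for the pentose phosphate genes. They were 1 higher and 1 lower for MYC and its partners, 2 higher for the serine branch, and 5 higher and 1 lower for the citric acid cycle. Within chromosomes the dcIDR counts were 4 higher and 3 lower for the further glycolysis and pyruvate genes. They were 8 higher and 4 lower for the hypoxia response genes and 1 higher and 3 lower for the citric acid cycle. Those of the other lists here stayed the same. Among all genes tested within chromosomes, 10.3% were higher and 13.9% lower in dcIDR and 12.5% and 13.6% in KO cells. On the spike-in scale these shares were 5.69% and 2.23%, and 21.9% and 2.63%. The other counts stand beside 10.4% higher and 14.7% lower in dcIDR and 14.6% higher and 15.5% lower in KO cells among all tested genes.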

How the data were processed

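EU-labelled RNA was sequenced in 24 libraries of E14TG2a cells. The authors deposited, per gene, a log2 ratio of each genotype at 20, 40 or 60 min to 10 min, pooled over 2 libraries and scaled to the Drosophila spike-in. HISAT2, SAMtools and Picard with the build GRCm39 are named in the submitters' processing notes. Their versions, the counting tool, whether it used strand, and the annotation were not given in the sources used here. Per the file headers the columns start with ko, wt or ki. The last was read as dcIDR, the one genotype left over, and no label says so.

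The deposited log2 values were found to be ratios of 1 plus 40000 times the summed reads per spike-in read, and solving them for whole reads fitted 100% of the lines that were not 0. The 2 libraries of a group are called A and B by spike-in depth and carry no replicate number. Where the split between them was unclear (2834 tested genes and 12 of the 33 genes, in at least 1 group), the group entered as 1 mean value with no spread of its own. Between 59.9% and 70.0% of gene counts of 1 to 6 reads were even; whether both ends of a fragment were counted was not tested.

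Levels were scaled to 11714 spike-in reads, and log2(level + 1) was centred on each library's median gene. Tested genes had an average level of 10 or more and reads in 6 or more libraries. They were fitted with limma 3.58.1 (R 4.3.3), with 1 coefficient per genotype and time over all 24 libraries. Contrasts were genotype differences averaged over times, slopes on log2 minutes and their differences, and an F test for dependence on time, with Benjamini-Hochberg adjustment over all tested genes. The fit was tested on simulated data. Symbols, spans and chromosomes came from GENCODE M21, which named 51948 of 56941 lines and is on GRCm38, so none of its coordinates are printed. Near-identical genes were found with blastn 2.17.0 (at least 95% identity over at least 200 bases). All 33 genes are given with at least 1 value; those with the 5 largest called differences in a comparison, or the 3 highest or lowest slopes in a genotype, are given in full. The genes and lists were chosen with earlier results of these data known. Alternatives were other scales, pseudocounts, filters, spread models and subsets of libraries.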

Additional observations from a re-analysis of the deposited data

Results flagged for a closer look

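For 4 genes an effect of labelling time differed between dcIDR and KO cells by a limma test of that difference. The slope over time differed for Slc16a1 (adjusted p = 0.0138), Gpi1 (adjusted p = 0.0203), Pdk1 (adjusted p = 0.0245) and Eno2 (adjusted p = 0.0333). The limma F test over the 4 times, which allows any shape, was passed by Gpi1 (adjusted p = 0.0234) and Eno2 (adjusted p = 0.0241), 2 of the 33 genes beside 4.47% of all tested genes. Gpi1 in dcIDR cells stood at 4.92, 4.76, 4.73 and 4.49 at 10, 20, 40 and 60 min, and in KO cells at 4.42, 4.84, 4.62 and 4.55. Eno2 in dcIDR cells stood at 0.41, −0.47, −0.30 and −0.99, and in KO cells at 0.10, 0.34, −0.02 and −0.24, so that its dcIDR libraries lay above the KO libraries at 10 min and below them at the 3 later times. For Gpi1 the difference between dcIDR and KO cells was 0.51 at 10 min and −0.08, 0.11 and −0.06 later. Without either KO library of 10 min 0 of the 33 genes passed the limma F test, without either dcIDR library of 10 min 1 did, without either WT library of 10 min 4 did, and without one KO library of 20 min 5 did. With 2 libraries per group, single libraries were not screened for outliers.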

How the results depend on the processing

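No paired analysis was possible because the recovered libraries carry no replicate number. Of 40 called genotype differences and 40 called slopes, quantile normalization kept 40 and 31, a mean level of at least 50 kept 40 and 40, trend with robust spread 39 and 40, unclear splits left out 37 and 40, a pseudocount of 10 kept 38 and 31, only the genotypes compared 36 and 29, no filter 30 and 36, leaving out 10 min 33 and 26, centring within chromosomes 26 and 34, and the spike-in scale 20 of the 40 differences. Signs turned for Gapdh in KO minus WT (−0.0305), Pdha1 in dcIDR minus WT (−0.0624) and Eno2 in dcIDR minus KO (0.0567) within chromosomes. They also turned for Gpi1 in dcIDR minus KO on the spike-in scale (−0.0215) and without 10 min (−0.0136). Of these, the values within chromosomes and on the spike-in scale were not called. Within chromosomes the counts were 3 higher in KO minus WT, 0 lower in dcIDR minus WT and 2 lower in dcIDR minus KO. On the spike-in scale they were 0 lower in KO minus WT, 4 higher and 0 lower in dcIDR minus WT, 4 higher in dcIDR minus KO, and 29 by the F test in dcIDR minus KO. On that scale the median gene itself gained 1.03 per doubling in dcIDR and 0.65 in KO cells. Apart from the genotype differences on the spike-in scale and within chromosomes, shares of all tested genes were not counted under these alternative settings. The counts here therefore cannot be set against all genes. With no filter dcIDR minus WT had 6 higher and 0 lower. Slopes called higher in KO were 3 with quantile normalization and 2 with only KO libraries; called lower in KO they were 4 within chromosomes and without 10 min, 10 with quantile normalization, 6 at a level of 50, 3 with robust spread and 0 with no filter or only KO libraries. In dcIDR they were 4 higher and 20 lower with quantile normalization, and 7, 3 and 8 lower with a pseudocount of 10, without 10 min and with only dcIDR libraries. In WT they were 3 higher and 16 lower with quantile normalization and 10 higher with a pseudocount of 10. The cause was not tested. Leaving out 1 library gave 7 to 9 higher and 3 to 4 lower in KO minus WT, 8 to 11 and 0 to 1 in dcIDR minus WT, 10 to 13 and 6 to 7 in dcIDR minus KO, 0 to 5 by the F test in dcIDR minus KO, and slopes called higher and lower of 7 to 7 and 7 to 13 in dcIDR, 4 to 6 and 0 to 5 in KO and 4 to 7 and 5 to 8 in WT.

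Each group had 2 libraries, and Aldoc had 14 to 142 reads in each, so small differences of low genes may have been missed.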
